A study of Mus musculus with 6 samples.

Results

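Hematopoietic cytokine receptors are the surface proteins through which stem and progenitor cells read growth factors. The genes described here are the 9 receptor genes *Kit*, *Flt3*, *Csf3r*, *Csf2ra*, *Csf2rb*, *Csf2rb2*, *Il3ra*, *Il6st* and *Epor*, taken by symbol from the 54532 genes of the deposited expression table. Each symbol matched 1 gene, and all 9 averaged at least 1 FPKM (fragment counts divided by gene length and by library size) and were tested. RNA-seq compared LSKs, the Lin-Sca1+c-Kit+ fraction of bone marrow that holds stem and multipotent progenitor cells, between 3 control libraries (CTRL) and 3 *Myh9*-deficient libraries (cKO). Controls were littermates carrying Myh9fl/fl;no cre and the deficient mice carried Myh9fl/fl;Mx1-cre, all on the C57BL/6 strain and genotyped at 4 to 5 weeks. Both groups received poly I:C, an interferon inducer, at 5 mg/kg, and their cells were sorted on day 4 after the first injection, at 100000 cells per library. The sample descriptions give 2 doses, and the study's methods give another number. The Mx1 promoter responds to interferon and is not restricted to hematopoietic cells. The study describes its 3 sets of LSK cells as independent, but how many mice each library came from is not stated. P-values thus measure the spread between these libraries, which may be partly technical.

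Receptors of this group fall into a pair of structural classes. c-Kit and Flt3 are receptor tyrosine kinases, which carry their own kinase domain and bind stem cell factor and Flt3 ligand. The others have no kinase of their own and work through JAK kinases and STAT factors. *Csf3r* and *Epor* encode the G-CSF and erythropoietin receptors, which pair with themselves. The GM-CSF and IL-3 receptors each join a specific alpha chain (*Csf2ra* or *Il3ra*) to a shared beta chain (*Csf2rb*), and mice carry a second beta chain gene, *Csf2rb2*, whose product serves IL-3. *Il6st* encodes gp130, the signal-transducing chain shared by receptors of the IL-6 family.

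The beta chain genes lie side by side on chromosome 15 with 20030 bases between them, *Csf2rb2* on the minus strand and *Csf2rb* on the plus strand. Over 2626 aligned columns of their principal coding sequences (GENCODE M21, GRCm38), 2504 bases were identical (95.4%), with 70 further gap columns. The first 120 coding bases of each are shown because some reads of these genes may match both, with the 4 positions that differ in capitals. The *Csf2rb* start codon lies at chr15:78335207-78335209 on the plus strand in exon 3, and that of *Csf2rb2* at chr15:78298227-78298229 on the minus strand in exon 2.
Csf2rb: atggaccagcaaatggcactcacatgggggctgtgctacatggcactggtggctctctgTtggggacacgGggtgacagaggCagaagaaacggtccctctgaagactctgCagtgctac
Csf2rb2: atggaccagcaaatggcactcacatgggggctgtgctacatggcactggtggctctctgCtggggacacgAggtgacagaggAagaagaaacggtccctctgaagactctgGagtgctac

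Of all 50-base stretches in the transcripts of *Csf2rb*, 12.3% also occurred in transcripts of another gene, and of those of *Csf2rb2*, 18.9%. The share was 10.7% for *Csf3r*, mostly with a processed pseudogene that was not used here, 0.049% for *Flt3* and 0 for *Kit*, *Csf2ra*, *Il3ra*, *Il6st* and *Epor*. How reads that match several genes were counted is not given in the sources used here, so the values of *Csf2rb*, *Csf2rb2* and *Csf3r* are uncertain to that extent. *Flt3* overlaps the antisense gene *Gm26597* over 936 bases, and *Il3ra* overlaps the antisense gene *Gm48860* over 990 bases. Both antisense genes had low mean levels, at 0.292 FPKM in CTRL and 0.403 FPKM in cKO for *Gm26597* and 0.0947 and 0.0328 FPKM for *Gm48860*. The stretches were compared on both strands. With shares of 0.049% for *Flt3* and 0 for *Il3ra*, nearly all 50-base stretches of their transcripts were distinct from these antisense transcripts. The strand setting of the counting is not given in the sources used here.

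The RefSeq promoter table (GRCm38.p6, 300 bases from upstream of the start to just past it) held 8 of the 9 genes, all but *Csf2rb*. It was searched on both strands for AGATAA (bound by GATA factors), GGAAGT (ETS factors), TGTGGT (RUNX factors), TTCNNNGAA (STAT factors) and TGACTCA (AP-1), none of which overlapped another in the stretches shown. AGATAA was present in 1 of the 8 promoters against 11.4% of all 27025 promoters, and GGAAGT in 3 against 24.1%. TGTGGT and TTCNNNGAA were each present in 1, against 16.9% and 8.47%, and TGACTCA in 0, against 5.17%. The stretches below are those of the 2 genes that were higher in *Myh9*-deficient LSKs, *Epor* and *Flt3*, and that of the only STAT match. Capitals mark the motif, each sequence is read in the direction of its gene, and a match describes letters in this window alone.
Epor, AGATAA on the other strand, chr9:21963598-21963657, minus strand: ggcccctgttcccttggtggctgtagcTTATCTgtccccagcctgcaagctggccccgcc
Epor, TGTGGT on the other strand, chr9:21963710-21963769, minus strand: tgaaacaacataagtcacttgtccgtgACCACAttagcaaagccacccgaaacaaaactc
Flt3, GGAAGT on the other strand, chr5:147400532-147400591, minus strand: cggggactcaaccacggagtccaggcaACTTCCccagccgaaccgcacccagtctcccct
Csf2rb2, TTCNNNGAA, chr15:78305701-78305763, minus strand: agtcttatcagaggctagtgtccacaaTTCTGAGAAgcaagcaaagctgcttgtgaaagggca

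The 6 libraries held 17571544 to 19894562 reads on genes, and a floor of 3 reads corresponded to 0.151 to 0.170 FPKM for a gene of 1 kilobase. Pearson correlations of log2(FPKM + 1) across genes were 0.991 to 0.993 within groups and 0.974 to 0.977 between groups. *Myh9*, the targeted gene, was at 22.5 ± 0.495 FPKM (SD, n = 3) in CTRL and 18.7 ± 1.18 FPKM in cKO libraries (log2 fold change -0.26, limma adjusted p = 0.00642). Most of the control level thus remained, and *Myh9*-deficient is the study's name for these cells. The study targeted exon 1, and a value for the whole gene does not show that exon apart. Of the gate genes, *Ly6a*, which encodes Sca1, was at 95.4 ± 1.87 FPKM in CTRL and 89.5 ± 3.63 FPKM in cKO libraries and was not called (log2 fold change -0.09, limma adjusted p = 0.083), although 3 of 17 alternative settings called it lower. In bulk RNA, fewer cells of a type and less RNA per cell cannot be told apart.

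Among the 9 receptor genes, *Flt3* and *Epor* rose in *Myh9*-deficient LSKs and the other 7 fell. The largest rises were 1.52-fold for *Flt3* and 1.55-fold for *Epor*, and the largest falls were 2.46-fold for *Il6st*, 1.61-fold for *Csf2ra* and 1.38-fold for *Csf3r*. Folds are ratios of mean FPKM, while log2 fold changes are cKO minus CTRL on the log2(FPKM + 1) scale, which understates changes of low genes. Calls were made at an adjusted p under 0.05 in limma's moderated test over 11552 genes. Over all genes tested, 19.9% were called higher and 20.6% lower, or 40.5% in either direction, so calls were common in this comparison. CTRL and cKO libraries did not overlap for any of the 9 receptor genes, beside 54% of all genes tested. The median log2 fold change was -0.32 over the 9 genes and -0.0096 over all genes tested.

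**Figure D1:**
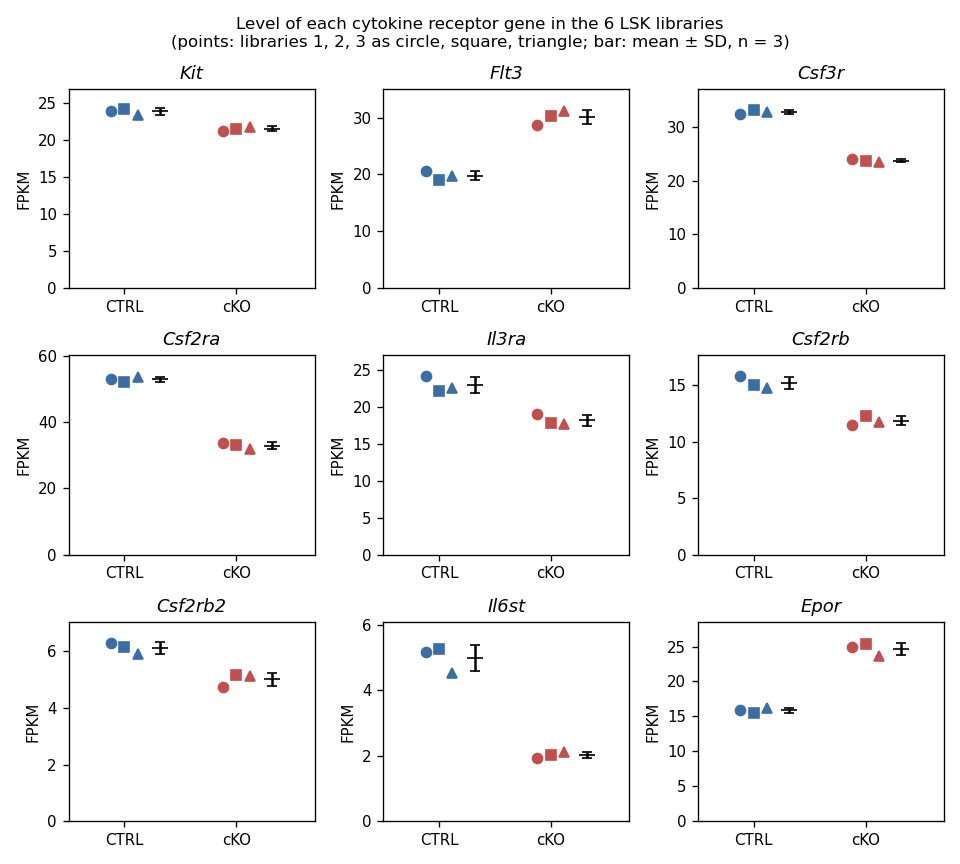
Level of each receptor gene in FPKM (vertical axes) in the 3 CTRL and 3 cKO LSK libraries, with points for libraries 1, 2 and 3 and bars for the mean ± SD (n = 3). In every panel the groups are separate, with *Flt3* (19.8 to 30.1 FPKM) and *Epor* (15.9 to 24.6 FPKM) higher and the other 7 genes lower in cKO libraries.

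The receptor tyrosine kinases moved in opposite directions. *Kit* (ENSMUSG00000005672, GRCm38 chromosome 5 from 75574916 to 75656722, plus strand, 21 exons) was at 24.0, 24.3 and 23.4 FPKM in the CTRL libraries and at 21.2, 21.5 and 21.8 FPKM in the cKO libraries. All cKO libraries lay below all controls, but the distance was small beside the level itself. *Kit* fell 1.11-fold (log2 fold change -0.14, SE 0.030, limma adjusted p = 0.0105), the smallest change of the 9 genes, and 52.3% of all genes tested changed by more. Its call was lost when the trends with GC content and length were removed from each library (log2 fold change -0.057, limma adjusted p = 0.102). Because c-Kit protein is part of the LSK gate, all of these cells had been selected for its presence on the surface.

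*Flt3* (ENSMUSG00000042817, chromosome 5 from 147330741 to 147400489, minus strand, 24 exons), the receptor that marks multipotent progenitors with lymphoid potential, was at 20.6, 19.1 and 19.7 FPKM in the CTRL libraries. The cKO libraries had 28.8, 30.3 and 31.1 FPKM, all above the highest control. The rise was 1.52-fold (log2 fold change 0.58, SE 0.043, 95% interval 0.48 to 0.68, limma adjusted p = 0.00015), and 6.58% of genes tested changed by more. Within each library, the ratio of *Flt3* to *Kit* was 0.861, 0.788 and 0.841 in CTRL and 1.36, 1.41 and 1.42 in cKO. *Flt3* thus lay below *Kit* in every control and above it in every *Myh9*-deficient library. Of a list of 10 genes of lymphoid-primed progenitors, 6 were tested, of which 1 was called higher and 3 lower. The higher gene was *Dntt*, which encodes the terminal transferase of antigen receptor rearrangement, from 58.3 to 66.8 FPKM (log2 fold change 0.19, limma adjusted p = 0.0017). The lower genes were *Ighm* (100.2 to 59.0 FPKM, log2 fold change -0.75), *Notch1* (-0.37) and *Cd52* (-0.23). The summed level of the list was 255 to 259.9 FPKM in CTRL and 211 to 217 FPKM in cKO libraries, and *Ighm* made up most of that fall. The part of these genes' cells in the level of *Flt3* was not tested.

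*Csf3r* (ENSMUSG00000028859, chromosome 4 from 126024550 to 126044440, plus strand, 17 exons), the G-CSF receptor of neutrophil production, was at 32.3, 33.2 and 32.8 FPKM in CTRL and at 24.0, 23.6 and 23.5 FPKM in cKO libraries. The libraries of each group lay close together, and the groups were far apart relative to that spread. The fall was 1.38-fold (log2 fold change -0.45, SE 0.027, 95% interval -0.52 to -0.39, limma adjusted p = 6.5e-05). Of 12 neutrophil and granule genes, 11 were called lower and 0 higher. *Elane*, neutrophil elastase, had a log2 fold change of -1.20, *Prtn3*, proteinase 3, of -0.94, and the ficolin gene *Fcnb* of -0.79. The summed level of this list was 10696 to 10767 FPKM in CTRL and 6101 to 6211 FPKM in cKO libraries, and the part of granule-expressing progenitors in the level of *Csf3r* was not tested.

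All 4 genes of the GM-CSF and IL-3 receptors fell, and the GM-CSF alpha chain fell most. *Csf2ra* (ENSMUSG00000059326, chromosome 19 from 61224402 to 61228418 in the deposited table, minus strand, 12 exons) was at 53.0, 52.1 and 53.5 FPKM in CTRL and at 33.7, 33.1 and 31.8 FPKM in cKO libraries. Every cKO library lay far below every control relative to the spread within groups. The fall was 1.61-fold (log2 fold change -0.67, SE 0.031, 95% interval -0.75 to -0.60, limma adjusted p = 2.4e-05), and 5.04% of genes tested changed by more. *Il3ra* (ENSMUSG00000068758, chromosome 14 from 14346275 to 14356011, plus strand, 11 exons), the IL-3 alpha chain, was at 24.2, 22.1 and 22.6 FPKM in CTRL and at 19.0, 17.8 and 17.7 FPKM in cKO libraries. Its fall of 1.26-fold (log2 fold change -0.32, SE 0.047, limma adjusted p = 0.0023) was at the median of the 9 genes.

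The shared beta chain gene *Csf2rb* (ENSMUSG00000071713, chromosome 15 from 78325752 to 78353847, 15 exons) was at 15.8, 15.05 and 14.7 FPKM in CTRL and at 11.5, 12.3 and 11.8 FPKM in cKO libraries. Its fall was 1.28-fold (log2 fold change -0.33, SE 0.042, limma adjusted p = 0.0013). *Csf2rb2* (ENSMUSG00000071714, chromosome 15 from 78282507 to 78305721, 14 exons), the IL-3-specific copy, was lower in level at 6.30, 6.17 and 5.89 FPKM in CTRL and 4.75, 5.15 and 5.11 FPKM in cKO libraries. It fell 1.22-fold (log2 fold change -0.25, SE 0.049, limma adjusted p = 0.0082), and for both beta chain genes the groups were separate. Between 422 and 594 reads per library lay behind *Csf2rb2* and between 1568 and 2290 behind *Csf2rb*, some of which may belong to the other copy.

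Beside the GM-CSF receptor genes, 8 of 10 monocyte genes were tested and all 8 were called lower. *Cd14*, the endotoxin co-receptor, had the largest fall of the list (log2 fold change -2.26). *Irf8*, a transcription factor of monocyte and dendritic cell progenitors, fell from 52.1 to 14.5 FPKM (log2 fold change -1.78). The summed level of the list was 529.5 to 569 FPKM in CTRL and 193 to 209 FPKM in cKO libraries. Of 10 mast cell and basophil genes, cells that also use the IL-3 receptor, 7 were called higher and 0 lower, with summed levels of 151 to 163 and 225 to 234 FPKM. The part of these cell types in the alpha and beta chain levels was not tested.

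*Il6st* (ENSMUSG00000021756, chromosome 13 from 112464070 to 112510086, plus strand, 17 exons), the gp130 gene, had the lowest level of the 9 and the largest change. Its values were 5.17, 5.26 and 4.54 FPKM in CTRL and 1.94, 2.02 and 2.11 FPKM in cKO libraries. CTRL library 3 was the lowest control and still lay above every cKO library by more than the whole spread of the controls. The fall was 2.46-fold (log2 fold change -0.98, SE 0.066, 95% interval -1.14 to -0.83, limma adjusted p = 9.2e-05), and 2.32% of genes tested changed by more. With a pseudocount of 0.1 in place of 1, the log2 fold change was -1.26. From 404 to 1142 reads per library lay behind these values.

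Among the receptor chains that pair with gp130, *Il6ra*, which encodes the IL-6 receptor, fell 1.95-fold, from 5.70 ± 0.052 to 2.92 ± 0.139 FPKM (log2 fold change -0.77, limma adjusted p = 7.2e-05). *Il11ra1*, the IL-11 receptor gene, was at 9.96 FPKM in CTRL and 10.7 FPKM in cKO libraries and was not called (log2 fold change 0.09, 95% interval -0.03 to 0.21, limma adjusted p = 0.192). *Lifr*, with 17 to 50 reads per library, and *Osmr*, with 0 to 3 reads, were below the filter on low values. *Il27ra*, whose product joins gp130 in the IL-27 receptor, rose from 5.67 ± 0.328 to 7.18 ± 0.589 FPKM, with separate groups (log2 fold change 0.29, limma adjusted p = 0.0145), a call lost in 1 of 17 alternative settings. *Il11ra1*, *Lifr*, *Osmr* and *Il27ra* were chosen after their values were seen, as further genes whose products work with gp130. The ligand gene *Osm*, which encodes oncostatin M, a cytokine of the gp130 family made by myeloid cells, fell 2.91-fold, from 30.4 ± 1.76 to 10.5 ± 0.412 FPKM (log2 fold change -1.45, limma adjusted p = 7.2e-06).

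*Epor* (ENSMUSG00000006235, chromosome 9 from 21958897 to 21963506, minus strand, 8 exons), the erythropoietin receptor of red cell production, was at 16.0, 15.5 and 16.1 FPKM in CTRL and at 24.9, 25.3 and 23.6 FPKM in cKO libraries. All cKO libraries lay well above all controls. The rise was 1.55-fold (log2 fold change 0.60, SE 0.037, 95% interval 0.51 to 0.69, limma adjusted p = 6.8e-05), and 6.22% of genes tested changed by more.

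Of 16 erythroid genes, 12 were tested and all 12 were called higher in *Myh9*-deficient LSKs (median log2 fold change 0.93). The beta globin gene *Hbb-bt* rose from 3.65 to 37.4 FPKM, *Cldn13* from 5.09 to 17.0 FPKM and the alpha globin gene *Hba-a1* from 0.812 to 3.47 FPKM. Globin genes have near-identical copies, so their values are uncertain. *Gata1*, the erythroid and megakaryocyte factor, rose from 33.0 to 42.4 FPKM (log2 fold change 0.35, limma adjusted p = 0.00029) and was chosen after its value was seen, for its role. The defining late erythroid genes *Alas2* (0 to 5 reads) and *Slc4a1* (0 to 8 reads) were at or near 0 in all 6 libraries. Summed levels were 558 to 560 FPKM in CTRL and 999.5 to 1033 FPKM in cKO libraries. Most of these sums came from *Car1* (344 to 618 FPKM), chosen after its value was seen. Of 12 megakaryocyte genes, 7 were tested and all 7 were called higher, with sums of 78.3 to 83.4 and 158 to 162 FPKM. Genes of the antigens used to deplete lineage-positive cells had sums of 5.16 to 6.45 FPKM in CTRL and 8.43 to 9.01 FPKM in cKO libraries, with 2 of 8 tested and both called higher. The part of erythroid and megakaryocyte progenitors in the level of *Epor* was not tested.

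**Figure D2:**
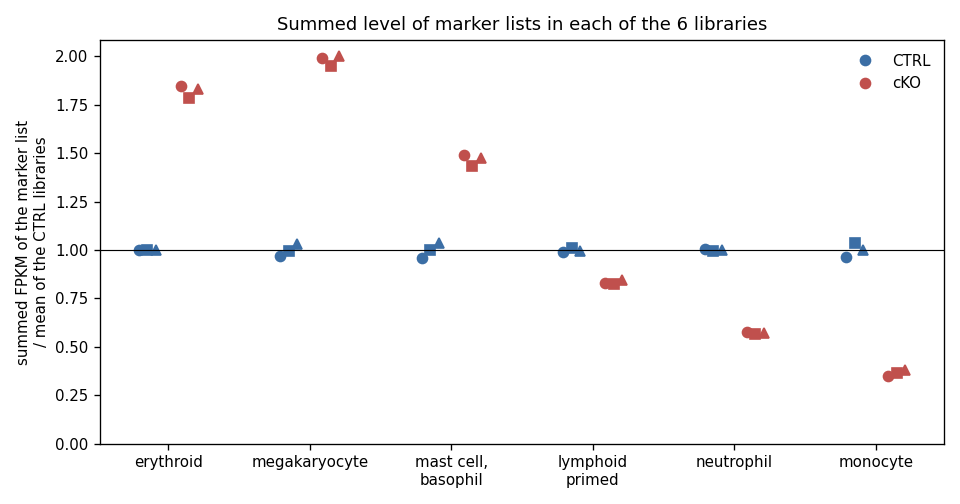
Summed FPKM of each marker list in every library, divided by the mean of the CTRL libraries (vertical axis, linear from 0, with a line at 1), for the 3 CTRL and 3 cKO libraries. Erythroid, megakaryocyte and mast cell lists lie above 1 in every cKO library, and neutrophil and monocyte lists lie below 1 in every cKO library.

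FPKM is scaled by gene length, so levels can also be compared between the receptor genes. In CTRL libraries the order was *Csf2ra*, *Csf3r*, *Kit*, *Il3ra*, *Flt3*, *Epor*, *Csf2rb*, *Csf2rb2* and *Il6st*, and neighbors overlapped for *Kit* with *Il3ra* and for *Epor* with *Csf2rb*. In cKO libraries the order was *Csf2ra*, *Flt3*, *Epor*, *Csf3r*, *Kit*, *Il3ra*, *Csf2rb*, *Csf2rb2* and *Il6st*, and only *Epor* and *Csf3r* overlapped. Of the 36 pairs of receptors, 34 were separate in CTRL and 35 in cKO libraries. The order was reversed, with separate values in each group, for 5 pairs, namely *Kit* with *Flt3*, *Kit* with *Epor*, *Flt3* with *Csf3r*, *Flt3* with *Il3ra* and *Il3ra* with *Epor*. Among all genes tested, 89.9% had a lower CTRL level than *Csf2ra*, 78.1% a lower level than *Kit* and 37.9% a lower level than *Il6st*.

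The summed level of the 9 genes was 194 ± 2.56 FPKM in CTRL and 169.8 ± 1.27 FPKM in cKO libraries (SD, n = 3). *Csf2ra* made up 27.2% ± 0.440 of this sum in CTRL and 19.3% ± 0.505 in cKO libraries. The share of *Flt3* was 10.2% ± 0.273 and 17.7% ± 0.747, and that of *Epor* was 8.16% ± 0.167 and 14.5% ± 0.412. *Kit*, in contrast, held 12.3% of the sum in CTRL and 12.7% in cKO libraries. Coefficients of variation between libraries of a group were 1.32% to 7.80% in CTRL and 0.986% to 4.37% in cKO across the 9 genes.

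Ratios between chains were taken within each library, which removes any factor that scales a whole library. With 3 libraries in each group, the exact two-sided permutation test cannot go below p = 0.1, and none of the 7 ratios could pass the threshold. The ratio of *Csf2ra* to *Csf2rb*, the alpha and beta chains of the GM-CSF receptor, was 3.48 ± 0.141 in CTRL and 2.77 ± 0.136 in cKO libraries, without overlap (exact permutation p = 0.1, adjusted over the 7 ratios 0.14). For the IL-3 receptor, the ratio of *Il3ra* to *Csf2rb* was 1.51 ± 0.0349 and 1.53 ± 0.108, with overlap (exact permutation p = 0.9, adjusted 0.9). The GM-CSF alpha chain was thus lower relative to its beta chain in every cKO library, whereas the values for the IL-3 alpha chain lay within the spread of the libraries.

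*Csf2rb2* stood to *Csf2rb* at 0.403 ± 0.00623 in CTRL and 0.422 ± 0.0114 in cKO libraries, without overlap but with a log2 difference of only 0.069. *Csf3r* stood to *Csf2rb* at 2.16 ± 0.101 and 1.999 ± 0.0841, with overlapping groups (exact permutation p = 0.2, adjusted 0.233). *Flt3* stood to *Kit* at 0.830 ± 0.0377 and 1.40 ± 0.0339, and *Epor* to *Kit* at 0.665 ± 0.0259 and 1.14 ± 0.0537. These were the largest differences of the 7 ratios, at 0.75 and 0.78 on the log2 scale. The IL-6 receptor pair, *Il6ra* to *Il6st*, had ratios of 1.11, 1.07 and 1.26 in CTRL and 1.44, 1.52 and 1.37 in cKO libraries, so the cKO libraries lay above the controls. The 5 ratios without overlap each had an exact permutation p of 0.1 (adjusted 0.14).

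**Figure D3:**
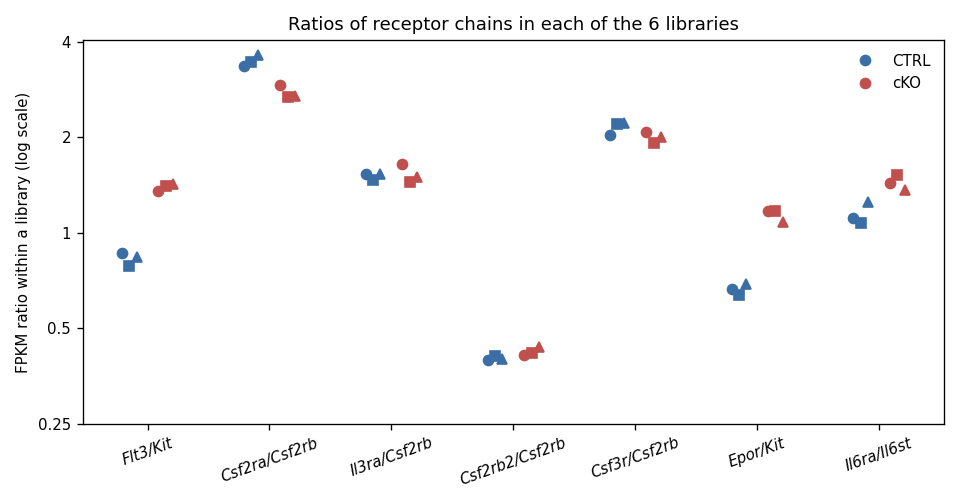
FPKM ratios of 7 pairs of receptor chains within each of the 3 CTRL and 3 cKO libraries (vertical axis, log scale). *Flt3* to *Kit* and *Epor* to *Kit* cross from below 1 in CTRL to above 1 in cKO libraries, while *Il3ra* to *Csf2rb* overlaps at 1.51 and 1.53.

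Beyond the 9 genes, a list of 42 other cytokine receptor genes held 27 that were tested, of which 9 were called higher and 13 lower (median log2 fold change 0.05). Among the rises were those of *Il2rb*, a signaling chain of the IL-2 and IL-15 receptors (0.312 to 2.23 FPKM, log2 fold change 1.30), and *Il18rap*, a chain of the IL-18 receptor (1.78 to 3.98 FPKM, 0.84). The largest falls were those of *Csf1r*, the M-CSF receptor of monocytes and macrophages (25.6 ± 1.17 to 8.70 ± 0.546 FPKM, log2 fold change -1.46, limma adjusted p = 1.0e-05), *Il6ra* and the TNF receptor gene *Tnfrsf1a* (47.3 to 32.2 FPKM, -0.54). The interferon receptor genes, chosen after their values were seen because poly I:C induces interferon, had log2 fold changes of -0.27 (*Ifnar1*), -0.32 (*Ifnar2*), -0.24 (*Ifngr1*) and -0.21 (*Ifngr2*), all called lower, with the call of *Ifngr2* lost in 7 of 17 alternative settings. Of 8 T and NK cell genes, which include users of the IL-2 and IL-15 receptors, 4 were tested, with 3 called higher and 1 lower and summed levels of 362 to 374 FPKM in CTRL and 324 to 327 FPKM in cKO libraries. Among the genes called higher was *Trbc2*, a T cell receptor constant segment (1.22 to 6.13 FPKM), and the gene called lower was *Nkg7*, a granule gene that carries most of the sum (353 to 279.6 FPKM). The defining T cell gene *Cd3e* was at 0 in all controls and at 0.183, 0.282 and 0.237 FPKM in the cKO libraries (at most 21 reads). *Trbc2* and *Cd3e* were higher in the cKO libraries, while the summed level of the list was lower. The part of T cells in the level of *Il2rb* was not tested.

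**Figure D4:**
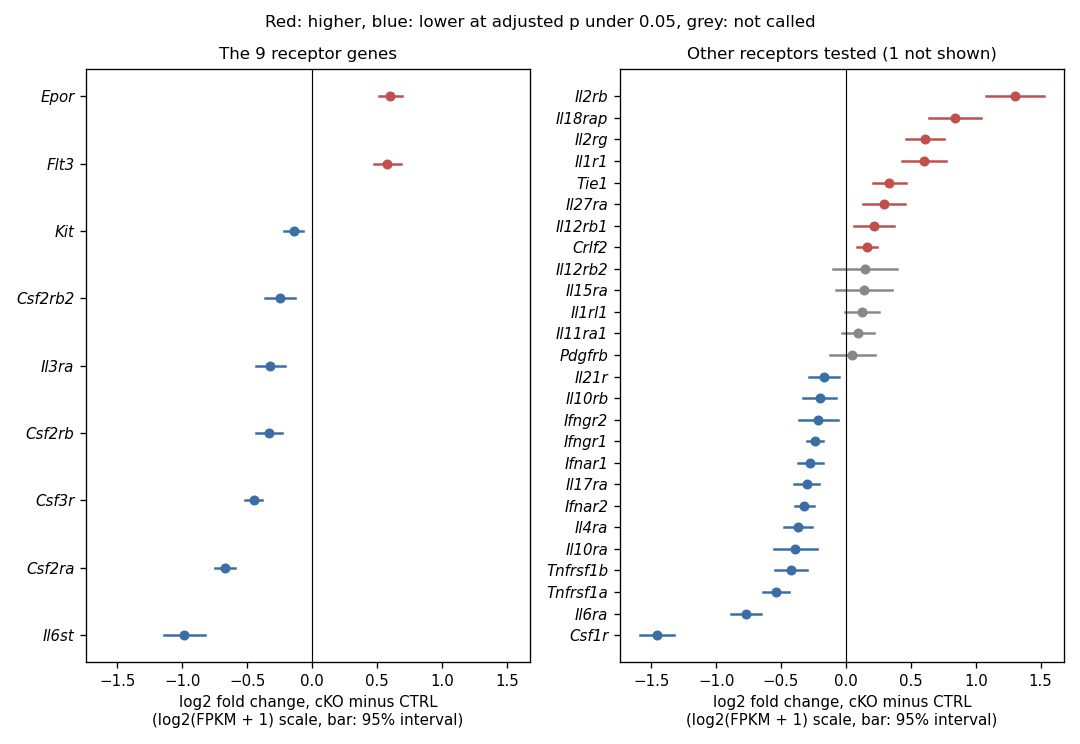
Log2 fold change, cKO minus CTRL, on the log2(FPKM + 1) scale (horizontal axis) for the 9 receptor genes (left) and other cytokine and growth factor receptors tested (right, 1 not shown), with 95% intervals. Red marks genes called higher, blue genes called lower and grey genes not called. Of the 9 receptors, *Il6st* lies farthest to the left at -0.98 and *Epor* farthest to the right at 0.60.

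Most ligand genes were below the filter on low values. Of 16 ligand genes, 5 were tested, 2 were called lower (*Osm* and *Csf1*, the M-CSF gene, at 2.14 and 1.45 FPKM) and 0 higher. *Il3*, *Il5*, *Epo* and *Thpo* had no read in any library. *Kitl*, *Csf2* and *Csf3*, the genes of stem cell factor, GM-CSF and G-CSF, had at most 5 reads in any library. These 7 ligand genes were chosen after their values were seen.

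Of 30 genes of JAK kinases and receptor adaptors, 14 were called lower, 3 higher and 13 were not called, and the median log2 fold change was -0.13. The largest falls were those of the PI3-kinase genes *Pik3cd* (30.0 to 19.3 FPKM, log2 fold change -0.61) and *Pik3r5* (-0.41) and of the adaptor *Gab2* (5.97 to 3.86 FPKM, -0.52). The rises were those of *Dok2*, an adaptor that restrains kinase signaling (0.61), *Hras* (0.27) and *Plcg1* (0.20), and the calls of *Hras* and *Plcg1* were lost in 9 and 7 of 17 alternative settings, and that of *Pik3r5* in 4 of 16. *Jak2*, the kinase bound by the erythropoietin, GM-CSF and IL-3 receptors, was chosen for this role after its value was seen. It was at 9.97 ± 0.746 FPKM in CTRL and 8.65 ± 0.193 FPKM in cKO libraries (log2 fold change -0.18, limma adjusted p = 0.038), a call lost in 8 of 17 alternative settings.

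Of 18 genes that restrain these receptors, 16 were tested, of which 11 were called lower and 1 higher (median log2 fold change -0.20). *Socs3*, which blocks signaling by gp130 and the G-CSF receptor, fell from 6.73 ± 0.660 to 3.53 ± 0.392 FPKM (log2 fold change -0.77, limma adjusted p = 0.00094). *Sh2b2*, an adaptor of receptor kinases, had a log2 fold change of -0.68, and the ubiquitin ligase gene *Cbl*, which targets c-Kit and Flt3 for degradation, of -0.36. The riser was *Socs1*, an inhibitor of JAK kinases, from 2.19 ± 0.240 to 3.35 ± 0.170 FPKM (log2 fold change 0.45, limma adjusted p = 0.0040). The members of this list thus included calls in each direction within the SOCS family.

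Of 11 STAT factors and genes that STAT factors induce, 6 were called lower, 1 higher and 4 were not called, with a median log2 fold change of -0.15. *Pim1*, a survival kinase induced by STAT5, fell from 98.5 ± 0.880 to 57.2 ± 3.64 FPKM (log2 fold change -0.77, limma adjusted p = 6.0e-05). *Stat5b*, which encodes a STAT5 factor downstream of most of these receptors, fell from 28.0 to 22.7 FPKM (log2 fold change -0.29). The other STAT5 gene, *Stat5a*, chosen after its value was seen, was not called (15.5 to 15.8 FPKM, log2 fold change 0.024, limma adjusted p = 0.725). *Bcl2l1*, which encodes the survival protein Bcl-xL, was the only gene of the list called higher (log2 fold change 0.31, limma adjusted p = 0.021), a call lost in 5 of 16 alternative settings.

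The patterns most like those of the 2 receptors with the largest changes were sought over the 6 libraries, by the root mean square difference of centered log2(FPKM + 1) values among genes averaging at least 5 FPKM. For *Il6st*, the nearest of 7169 genes were *Gm1673* (0.028), *Scd2* (0.061), a desaturase gene, and *Ms4a6c* (0.061). For *Csf2ra*, the nearest of 7168 genes were *Dnajb9* (0.018), a chaperone gene of the endoplasmic reticulum, *Smim24* (0.030) and *Psap* (0.032), which encodes the lysosomal protein prosaposin.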

How the data were processed

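RNA from sorted LSKs was made into libraries with a TruSeq kit. The authors deposited 1 table of FPKM values with gene lengths and GRCm38 coordinates, and the submitters' processing notes name HISAT2 2.0.5 and mm10. The counting program, annotation release and strand setting are not given in the sources used here. Multiplied by gene length, the deposited FPKM values were whole multiples of 1 step for 100% of values (tolerance 0.01), which gave the reads behind each value. Floors of 3 reads cover counting error only, while the intervals printed are those of limma and rest on the spread between libraries.

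The 11552 genes averaging at least 1 FPKM were analyzed as log2(FPKM + 1). The two-sided test was limma 3.58.1 (lmFit, then eBayes with trend set) in R 4.3.3, and p-values were adjusted by Benjamini and Hochberg over those genes. The script was tested on simulated data. Coding sequences and promoters were read from GENCODE M21 and RefSeq. The members, gene lists and tests were chosen with earlier results of these data known. Named were all 9 receptors, *Myh9*, *Ly6a*, and of each list at most 3 called genes in each direction by the size of change, beside defining markers at or near 0 and antisense partners, with other names said to be chosen after their values were seen. Of the alternatives, 1 gave each library's values without their trends with GC content and length (splines with 4 degrees of freedom). Some genes of the lists are counted but not reported here by name.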

Additional observations from a re-analysis of the deposited data

How the results depend on the processing

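The 9 receptor genes were refitted under 17 alternatives: a pseudocount of 0.1, no filter, a filter at a mean of 5 FPKM, other scalings, other moderation, voom on the recovered reads, removal of GC and length trends, a replicate block and leaving out each library in turn. Of 152 receptor values, 151 kept their direction and call. The exception was *Kit* with GC and length trends removed (log2 fold change -0.057, adjusted p = 0.102, limma), and the cause was not tested. At a mean of 5 FPKM, *Il6st* was not tested. The labels number the libraries 1 to 3 in each group. With these numbers as a replicate block, 2 receptors remained higher and 7 lower, and calls over all genes were 2063 higher and 2044 lower. Deviations of same-numbered libraries correlated at -0.0046, -0.011 and -0.026, and 0 of 6 libraries correlated best with their own number, so the numbers are not taken to pair the libraries. Of 49 ratio values, 48 kept their direction, and the log2 difference of *Il3ra* to *Csf2rb* was -0.035 without cKO library 1 and ranged from -0.035 to 0.063 when each library was left out. Of 1050 values of 63 other genes, mostly of the pathway and marker lists, 0 reversed and 46 lost their call. Depth limits genes under 3 reads, and 3 libraries per group limit ratio tests.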
